A study of Mus musculus with 4 samples.

Results

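Transcript levels of 10 early response genes were examined after stress in mouse melanocyte stem cells, which renew the pigment cells of hair. The genes were chosen by name: Egr1, Egr2, Egr3, Nab2, Ier2, Ier3, Ier5, Btg2, Zfp36 and Myc. Earlier results of these data were known when they were chosen, so counts among them set beside shares of all genes are descriptive. All 10 were found among the 27933 genes counted, and all 10 had enough counts to be tested. Cells had been sorted by flow cytometry, and the labels call them melanocyte stem cells. The stressed group (n = 2) came from mice given RTX, and the control group (n = 2) from mice given saline. Per the labels, RTX was injected 12 h before harvest, a line that the saline libraries carry as well. The labels do not spell RTX out; in studies of pain it is the usual abbreviation of resiniferatoxin, an agonist of the capsaicin receptor. The labels give no strain, age or sex, do not name the sorting markers and do not say whether the libraries of a group came from separate animals, so p-values reflect variation among the 4 libraries only, some of which may be technical. In sorted bulk samples, fewer cells carrying a transcript and less of it per cell cannot be told apart.

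Early response genes, also called immediate early genes, are transcribed within minutes of a signal at the cell surface and need no new protein for it. Many carry a CArG box, the DNA element bound by serum response factor (SRF), whose partner proteins are activated by the ERK MAP kinases, and some carry a cAMP response element (CRE), bound by CREB. Their mRNAs are usually short-lived. EGR proteins are zinc finger transcription factors that bind a GC-rich site, and NAB2 binds EGR proteins and represses them. ZFP36 binds AU-rich elements in mRNAs and starts their decay, BTG2 restrains cell division and binds the CCR4-NOT deadenylase, and MYC is a transcription factor for growth genes.

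Upstream sequences are shown for Egr2 and Btg2, 2 of the genes with lower levels in stressed cells, because they hold a CArG box and a full CRE, and for Ier5, the 1 gene with higher levels. They are the 250 bases before a RefSeq start site (GRCm38.p6), read on the strand of the gene. Capitals mark a CArG box, the full CRE TGACGTCA or the EGR site GCGNGGGCG on either strand. The windows are chr10:67537619-67537868 (plus strand) for Egr2, chr1:134079156-134079405 (minus strand) for Btg2 and chr1:155099637-155099886 (minus strand) for Ier5.
Egr2: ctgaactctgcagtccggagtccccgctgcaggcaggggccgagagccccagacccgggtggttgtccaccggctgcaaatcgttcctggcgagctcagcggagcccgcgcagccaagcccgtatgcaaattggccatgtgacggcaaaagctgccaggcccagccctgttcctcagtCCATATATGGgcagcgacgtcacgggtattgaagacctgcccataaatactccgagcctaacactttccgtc
Btg2: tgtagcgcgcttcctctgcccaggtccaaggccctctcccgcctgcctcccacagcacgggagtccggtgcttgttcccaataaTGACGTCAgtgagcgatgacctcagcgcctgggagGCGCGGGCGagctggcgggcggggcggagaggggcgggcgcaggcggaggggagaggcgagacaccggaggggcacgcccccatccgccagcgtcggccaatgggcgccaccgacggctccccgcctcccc
Ier5: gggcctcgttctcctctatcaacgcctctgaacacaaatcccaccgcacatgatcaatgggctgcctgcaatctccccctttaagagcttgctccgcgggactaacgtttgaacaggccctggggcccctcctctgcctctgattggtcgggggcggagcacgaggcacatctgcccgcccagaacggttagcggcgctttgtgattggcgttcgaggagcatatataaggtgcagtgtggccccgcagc
For Zfp36 only the 30 bases around its CArG box are shown (chr7:28379267-28379296, minus strand).
Zfp36: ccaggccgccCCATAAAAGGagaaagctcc

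RefSeq windows were matched for 6 of the 10 genes, namely Egr2, Nab2, Ier3, Ier5, Btg2 and Zfp36. A CArG box was found in 2 of them, Egr2 and Zfp36, against 1.62% of 27025 genes with a window. In the Egr2 window shown, whose start site lies inside the span counted for the gene, it lay 72 to 63 bases before the start. The Zfp36 start site also lies inside its counted span, which is 1 merged exon of 3470 bases. Its CArG box, 58 to 49 bases before that start, therefore lies in bases counted as Zfp36 exon. The full CRE was found in Btg2, 166 to 159 bases before the start, against 1.77% of genes. The EGR site was found in Btg2 and Zfp36, against 5.33% of genes. Neither Ier5 nor Nab2 nor Ier3 held any of these 3 motifs within the 250 bases. A match describes letters in a window and is no evidence that a factor was bound in these cells.

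Library totals ran between 9273652 and 11854280 counts. Counts were compared with edgeR's quasi-likelihood test, adjusted over the 13348 genes tested, and with DESeq2's Wald test as an alternative. Levels are given as CPM, the usual depth-scaled count, after TMM scaling of library totals, and log2 fold changes are stressed over control. Sums over marker lists are CPM of the library totals without TMM scaling. The sorted cells carried melanocyte markers: the 9 listed, such as Dct and Pmel, summed to 40135 and 37059 CPM in the stressed and 23081 and 21772 CPM in the control libraries. Of these 9, 6 lay higher in both stressed libraries than in either control, and 0 lay lower. Keratinocyte markers also moved with the groups, in the other direction. The 17 keratinocyte markers summed to 13059 and 11589 CPM in the stressed libraries, against 30607 and 19342 CPM in the controls, and 11 of them had separate groups, with lower values in stressed cells. None of the 17 was at 0 in any library. The 9 immune markers, of which 8 are in the files, summed to 6.49 and 8.20 CPM in the stressed and 8.63 and 40.9 CPM in the control libraries. Fibroblast markers stayed between 16.5 and 53.2 CPM, and endothelial and erythroid markers at or below 5.18 CPM. At 0 in all 4 libraries were Lum, 1 of 8 fibroblast markers, and Cdh5, 1 of 6 endothelial markers. Hbb-bs and Hbb-bt, 2 of 5 erythroid markers, were also at 0 throughout. The other markers of these lists had reads in at least 1 library. The part of keratinocyte RNA in the results below was not tested. Mitochondrial transcripts made up 0.479% and 0.405% of counts in the stressed and 0.906% and 2.07% in the control libraries.

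Of the 10 genes, 9 had lower mean levels in stressed cells and 1, Ier5, had a higher one. Their median log2 fold change was -0.82, while the median of all genes tested was -0.0091. In 7 genes both stressed libraries lay below both controls, a pattern that 22.9% of all genes tested showed. In 1 gene, Ier5, both lay above, as in 21.8% of all genes. edgeR called 0 of the 10 genes, and 0% of all genes, at an adjusted p below 0.05. At an unadjusted p below 0.05, edgeR counted 5 of the 10 as lower, against 7.6% of all genes, and 0 as higher, against 5.17%. limma-voom likewise called 0 of the 10 and 0% of all genes. At an unadjusted p below 0.05 it counted 5 of the 10 as lower, against 7.14% of all genes, and 12.7% of all genes in either direction. DESeq2 called 5 of the 10 as lower and 0 as higher, against 2.72% and 1.78% of the genes with an adjusted p, or 4.5% in either direction. These were Egr1, Egr2, Ier2, Btg2 and Zfp36, and their mean level in stressed cells was between 47.5% and 52.2% of that in control cells. Without stressed replicate 2, DESeq2 called 0 of the 10, and 0.337% of the genes fitted. With no filter on low counts, edgeR called 5 of the 10 as lower, and 2.67% of the genes fitted. With 2 libraries against 2, an exact two-sided permutation test of a single gene cannot go below p = 0.333.

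**Figure D1:**
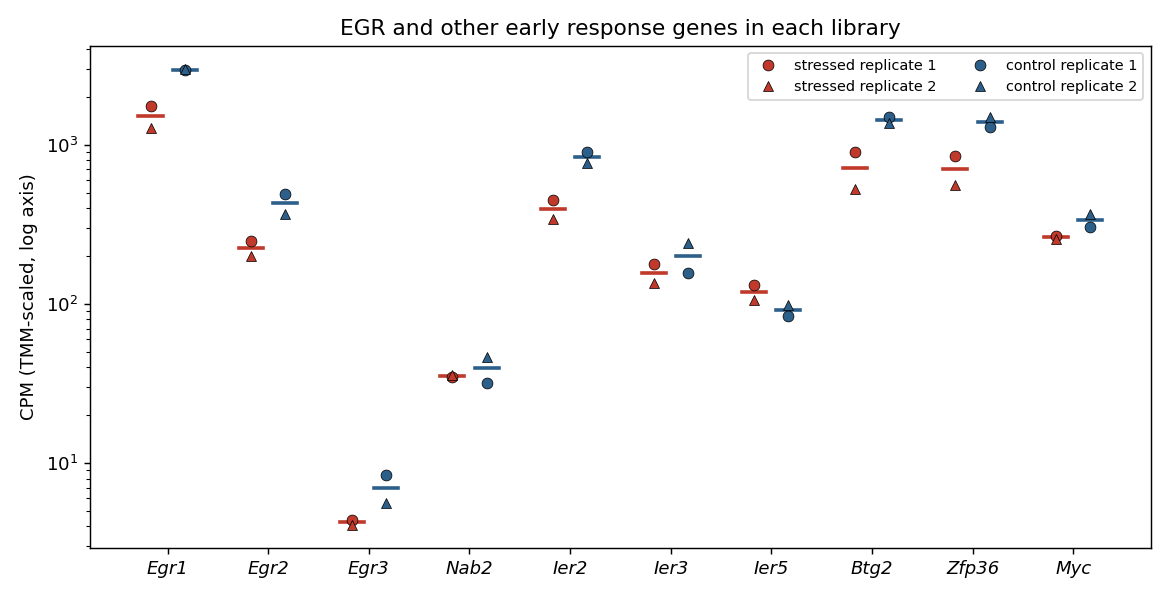
CPM of each of the 10 genes (log axis) in the 2 stressed libraries (red, left of each pair) and the 2 control libraries (blue, right); circles are replicate 1, triangles replicate 2, and bars the group mean. The groups do not overlap in 8 genes, with Ier5 the 1 gene that lies higher in both stressed libraries.

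Egr1 (chr18:34859823-34864984, mm10, plus strand) encodes the best known EGR factor. It had 1753 and 1281 CPM in stressed replicates 1 and 2, against 2933 and 3002 CPM in control replicates 1 and 2. The controls were almost level, and the higher stressed library lay 0.74 log2 units below the lower control. Its means were 1517 ± 334 CPM in stressed and 2968 ± 48.5 CPM in control cells (SD, n = 2 each). The edgeR log2 fold change was -0.97 with an SE of 0.26 (edgeR quasi-likelihood adjusted p = 0.230). DESeq2 gave -0.96 with an adjusted p of 0.00123, and over the 15 alternative settings the adjusted p ranged between 0.00123 and 0.999.

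Egr2 (chr10:67535475-67542188, plus strand), whose upstream window with the CArG box is shown above, encodes the EGR factor known for driving myelination in Schwann cells. It had 248 and 199 CPM in the stressed and 488 and 369 CPM in the control libraries. Every stressed value was under every control value, but here the controls stood further apart than those of Egr1. The edgeR log2 fold change was -0.94 with an SE of 0.23 (adjusted p = 0.204), and the DESeq2 adjusted p was 0.00643, within a range of 0.000179 to 0.960 over the alternatives. The summed level of 5 Schwann cell markers overlapped between the groups, at 1160.3 and 966 CPM in the stressed and 949 and 1348 CPM in the control libraries. Of these, 1 lay lower in both stressed libraries than in either control: Mbp, a myelin protein gene named after its values were seen, with 23.2 and 12.8 CPM in the stressed and 39.7 and 33.9 CPM in the control libraries. Their part in the Egr2 result was not tested.

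Egr3 (chr14:70077445-70080157, plus strand), an EGR factor known in muscle spindles and lymphocytes, had the fewest reads of the 10 genes. It had 47 and 45 reads in the stressed and 78 and 66 reads in the control libraries, or 4.41 and 4.09 CPM against 8.36 and 5.59 CPM. The groups did not overlap, yet the exact 95% Poisson interval of stressed replicate 1, 3.24 to 5.87 CPM, overlapped that of control replicate 2, 4.32 to 7.11 CPM. Such intervals cover counting error only, and may be too narrow even for that, since no molecular identifiers separate PCR copies. The log2 fold change of -0.71 had an SE of 0.47, and neither edgeR (adjusted p = 0.599) nor DESeq2 (adjusted p = 0.763) called it. Of all reads on the 3 EGR genes, Egr1 took 87.4% and 86.3% in the stressed and 85.5% and 88.9% in the control libraries.

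Nab2 (chr10:127660918-127668568, minus strand), the EGR co-repressor and itself a known EGR target, did not follow Egr1 and Egr2. It had 34.5 and 36.0 CPM in the stressed and 31.9 and 46.7 CPM in the control libraries. Both stressed values lay between the controls. The log2 fold change was -0.16 with an SE of 0.26 (edgeR adjusted p = 0.867), and without control replicate 2 its sign turned, to 0.15. Set against the reads on the 3 EGR genes, there were 17.2 and 24.3 Nab2 reads per 1000 EGR reads in the stressed libraries and 9.31 and 13.8 in the controls. Of its exon bases, 42.2% are shared with exons of Stat6, Gm16229 or Tmem194 on the opposite strand, and reads were counted without regard to strand, so the Nab2 counts and the level per kilobase are uncertain. Its paralog Nab1, another EGR co-repressor, had 127 and 150 CPM in the stressed and 134 and 110 CPM in the control libraries, with overlapping groups. Of the other EGR and NAB relatives listed, Egr4 was called by neither test (log2 fold change 1.20, SE 1.47), and Wt1 was too low to test.

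The 3 IER genes, named for immediate early response, did not share a direction. Ier2 (chr8:84661331-84662852, minus strand), a single-exon gene for a nuclear protein, had 448 and 343 CPM in the stressed and 899 and 767 CPM in the control libraries. Its groups stood the furthest apart of the 10 genes, 0.77 log2 units between the nearest libraries. The edgeR log2 fold change was -1.07 with an SE of 0.23 (adjusted p = 0.164), and the DESeq2 adjusted p was 0.000299, within 4.13e-05 to 0.924 over the alternatives. Ier5 (chr1:155096361-155099636, minus strand), also a single-exon gene, related to Ier2 and known as a target of heat shock factor, had 131 and 105 CPM in the stressed and 84.2 and 99.0 CPM in the control libraries. The groups were separated by 0.088 log2 units, less than the distance between the libraries of either group. Its log2 fold change of 0.37 had an SE of 0.20 and was called by neither edgeR (adjusted p = 0.509) nor DESeq2 (adjusted p = 0.597). Ier3 (chr17:35821684-35822923, plus strand), which encodes a regulator of cell survival, had 178 and 134 CPM in the stressed and 157 and 241 CPM in the control libraries. The groups overlapped, and the log2 fold change of -0.35 had an SE of 0.27 (edgeR adjusted p = 0.654). Without control replicate 2 it was -0.0020, and without control replicate 1 it was -0.61.

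Btg2 (chr1:134075170-134079120, minus strand), whose upstream window holds the full CRE and an EGR site, is also known as a target of p53. It had 897 and 524 CPM in the stressed and 1500.2 and 1378 CPM in the control libraries. The stressed libraries were the less alike pair, 0.78 log2 units apart, and both lay below both controls. The edgeR log2 fold change was -1.02 with an SE of 0.30 (adjusted p = 0.254), and leaving out stressed replicate 2 gave -0.67, leaving out stressed replicate 1 gave -1.45. The DESeq2 adjusted p was 0.0116, within 0.00317 to 0.999 over the alternatives.

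Zfp36 (chr7:28376784-28380253, minus strand), whose CArG box is shown above, had 851 and 558 CPM in the stressed and 1287 and 1499 CPM in the control libraries. Every stressed value was under every control value. The edgeR log2 fold change was -0.98 with an SE of 0.27 (adjusted p = 0.238), and the DESeq2 adjusted p was 0.00650, within 0.00190 to 0.999 over the alternatives. Of its exon bases, 3.6% are shared with a gene on the opposite strand. Among the 10 mRNAs, Zfp36 and Nab2 hold the nonamer TTATTTATT, the preferred ZFP36 site, in the longest annotated 3′ UTR of GENCODE M21, as do 7.66% of 21020 genes. The sites (GRCm38, capitals mark the nonamer) are shown because Zfp36 mRNA, itself among those with lower levels, encodes the protein known to bind this nonamer. A match is no evidence that ZFP36 was bound there in these cells. The sites lie at chr7:28376951-28376979 for Zfp36 and chr10:127660946-127660974 for Nab2, both on the minus strand.
Zfp36: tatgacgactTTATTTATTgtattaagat
Nab2: gtacagtagaTTATTTATTttgttatttt
The shorter core ATTTA occurred in 9 of the 10 3′ UTRs, with 0 copies in Ier2. There were 7 copies in the 2645 bases of Egr3, 5 in the 613 bases of Ier3 and 5 in the 2199 bases of Btg2. Its share over all genes was not computed, so whether 9 of 10 is more than usual is not known.

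Myc (chr15:61985341-61990374, plus strand) had 266 and 257 CPM in the stressed and 304 and 368 CPM in the control libraries. The groups did not overlap, but the difference was small: the log2 fold change was -0.36 with an SE of 0.19, called by neither edgeR (adjusted p = 0.496) nor DESeq2 (adjusted p = 0.497). edgeR and DESeq2 called 0% and 4.5% of all genes, and none of 13 genes of the MYC and MAX network. Of these 13, 6 had values below 0 and 7 above. Mxi1 encodes a MAX partner that opposes MYC and had the highest CPM of them. It had 197 and 178 CPM in the stressed and 144 and 161 CPM in the control libraries. The list of 22 MYC target genes was also chosen with earlier results of these data known, and its genes need not vary independently. All 22 had log2 fold changes above 0, as did 6557 of the 13348 genes tested, and the median of the 22 was 0.52. In 16 of them both stressed libraries lay above both controls, against 21.8% of all genes. With 1 library left out, between 20 and 22 of the 22 stayed above 0. edgeR called 0 of them, with 9 higher at an unadjusted p below 0.05 against 5.17% of all genes, and DESeq2 called 3 as higher, against the 1.78% it called over all genes. These were Bop1 and Ncl, of ribosome assembly, and Hspd1, a mitochondrial chaperonin gene. Bop1 had 149 and 206 CPM in the stressed and 98.4 and 107 CPM in the control libraries, and Hspd1 had 238 and 263 CPM in the stressed and 173 and 124 CPM in the control libraries. Ncl had 676 and 648 CPM in the stressed and 433 and 439.7 CPM in the control libraries.

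**Figure D2:**
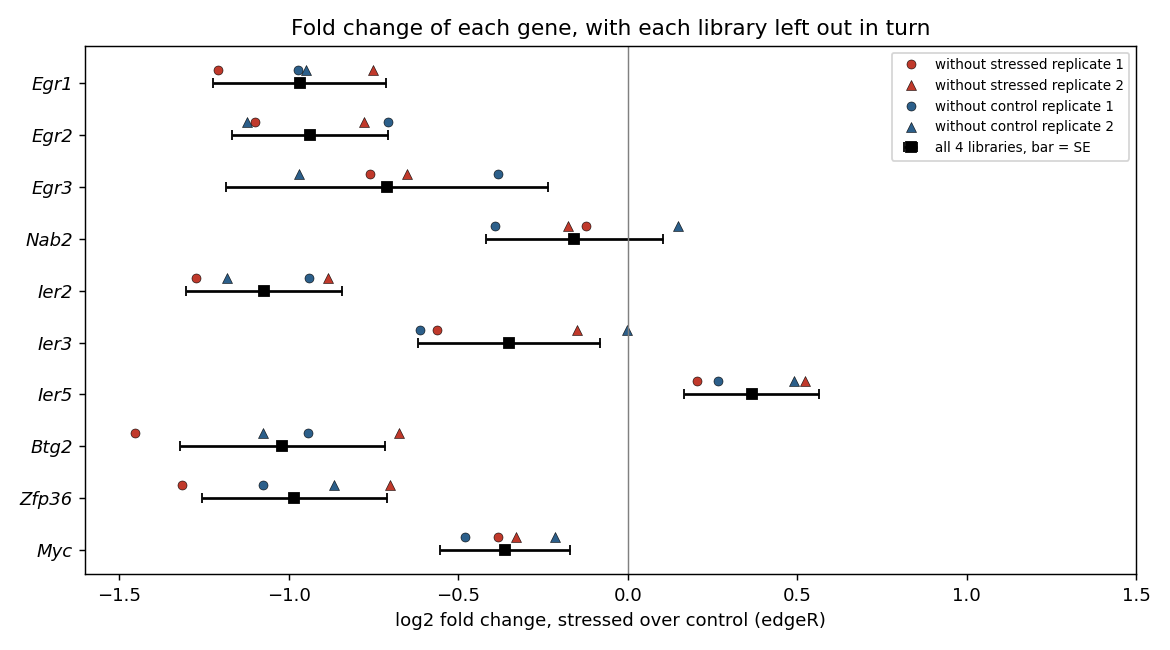
edgeR log2 fold change (stressed over control) of each of the 10 genes with all 4 libraries (black squares, bars are the SE) and with 1 library left out (red, a stressed library; blue, a control library; circles replicate 1, triangles replicate 2). Egr1, Egr2, Egr3, Ier2, Btg2, Zfp36 and Myc stay below 0 in every case, Ier5 stays above 0, Ier3 reaches -0.0020 and Nab2 turns to 0.15 without control replicate 2.

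Levels were compared between genes per kilobase of exon. Egr1 stood first of the 10 in every library, at 391 and 286 CPM per kb in the stressed and 654 and 669 CPM per kb in the control libraries, and ranked 51 by mean level among the 13348 genes. Ier2 and Btg2 followed at mean levels of 260 and 259 CPM per kb in stressed cells, against 547 and 525 CPM per kb in control cells. They differed from each other by less than their spread and changed places between libraries. Zfp36 came next in every library, with 203 CPM per kb in stressed and 401 CPM per kb in control cells. Its exon length of 3470 bases is the whole counted span and takes in bases before the RefSeq start site. Its level per kilobase and its place are therefore uncertain. Ier3, Myc and Egr2 formed the middle, with mean levels of 138, 94.6 and 65.9 CPM per kb in stressed cells and 176, 121 and 126 CPM per kb in control cells. In control replicate 1 their order was Egr2, Ier3, Myc, while in the other 3 libraries it was Ier3, Myc, Egr2. Ier5 followed in every library, at 36.0 CPM per kb in stressed and 28.0 CPM per kb in control cells. Nab2, with means of 12.0 CPM per kb in stressed and 13.4 CPM per kb in control cells, and Egr3 were the lowest in all 4. Egr3 had 3.12 and 2.89 CPM per kb in the stressed and 5.90 and 3.95 CPM per kb in the control libraries. By this measure, the 5 genes that DESeq2 called were the first 4 and Egr2.

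Replicates disagreed in a shared direction in the stressed group. In 9 of the 10 genes, all but Nab2, stressed replicate 2 lay below stressed replicate 1, and the same held for 31 of 38 other early response genes and for 50% of all genes tested. The median distance between the stressed libraries was 0.35 log2 units for the 10 genes, 0.35 for the 38 others and 0.25 for all genes. The absolute log2 ratio of the controls had a median of 0.25 for the 10 genes, against 0.51 for the 38 others and 0.37 for all genes, and 4 of the 10, Egr2, Egr3, Nab2 and Ier3, lay above the median of all genes. A ratio over 1 log2 unit between the controls was found in 0 of the 10, in 10 of the 38 others and in 14.8% of all genes. Fos, the AP-1 factor gene, had 4836 and 3327 CPM in the stressed and 5968 and 11391 CPM in the control libraries. Jun, singled out after its values were seen, had 1543 and 1293 CPM in the stressed and 1840.3 and 6790.3 CPM in the control libraries. In both, control replicate 2 stood far above the other 3 libraries. Among the 10 genes the control ratio was at most 0.62 log2 units, in Ier3.

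**Figure D3:**
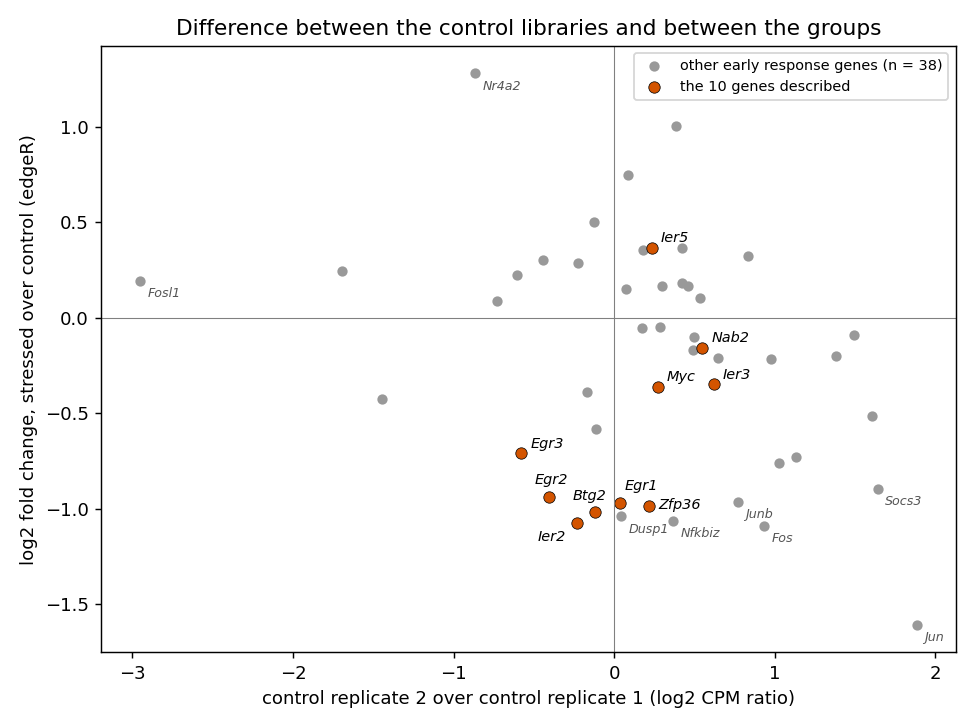
Log2 ratio of control replicate 2 over control replicate 1 (x axis) and edgeR log2 fold change, stressed over control (y axis), for the 10 genes (orange) and 38 other early response genes (grey). Egr1, Egr2, Ier2, Btg2 and Zfp36 lie near -1 on the y axis with control ratios between -0.41 and 0.22, while Jun, at -1.61, has a control ratio of 1.88. The 2 axes share the control libraries.

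The 38 other early response genes were split. Of them 20 had values below 0 and 18 above, and the median log2 fold change was -0.052. It turned to 0.18 when stressed replicate 2 was left out and to 0.15 when control replicate 2 was. The groups did not overlap in 15, with stressed values lower in 8 and higher in 7, against 22.9% and 21.8% of all genes. edgeR called 0, with 5 lower and 4 higher at an unadjusted p below 0.05, where the shares of all genes were 7.6% and 5.17%. DESeq2 called 4 as lower and 3 as higher, against 2.72% and 1.78% of all genes. Dusp1, a phosphatase gene that switches off MAP kinases, had 561 and 337 CPM in the stressed and 909.8 and 937 CPM in the control libraries, a DESeq2 call with level controls like those of Egr1. Nfkbiz, an atypical inhibitor of NF-kB, had 118 and 75.3 CPM in the stressed and 176 and 227 CPM in the control libraries and was called lower by DESeq2, as was Fos. Nr4a2, an orphan nuclear receptor gene, went the other way with a DESeq2 call, at 37.9 and 38.4 CPM in the stressed and 20.4 and 11.2 CPM in the control libraries.

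Upstream of these genes, the 25 genes of the SRF and ERK pathway did not all share a direction. Of them 8 had values below 0 and 17 above, with a median log2 fold change of 0.11. Both stressed libraries lay above both controls in 12 and below both in 5, against 21.8% and 22.9% of all genes. edgeR called 0, with 1 lower and 3 higher at an unadjusted p below 0.05, against 7.6% and 5.17% of all genes. DESeq2 called 0 as lower and 1 as higher, Srf itself, against 2.72% and 1.78% of all genes, or 4.5% in either direction. Srf had 109.8 and 108 CPM in the stressed and 65.2 and 59.1 CPM in the control libraries. Its log2 fold change was 0.81 with an SE of 0.17 (edgeR adjusted p = 0.155; DESeq2 adjusted p = 0.0138). Srf was thus higher in the libraries in which Egr1, Egr2, Ier2, Btg2 and Zfp36 were lower. Of these, a CArG box was found for Egr2 and Zfp36 but not for Btg2, and Egr1 and Ier2 had no matched window. SRF activity depends on its partner proteins, which mRNA levels do not measure.

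**Figure D4:**
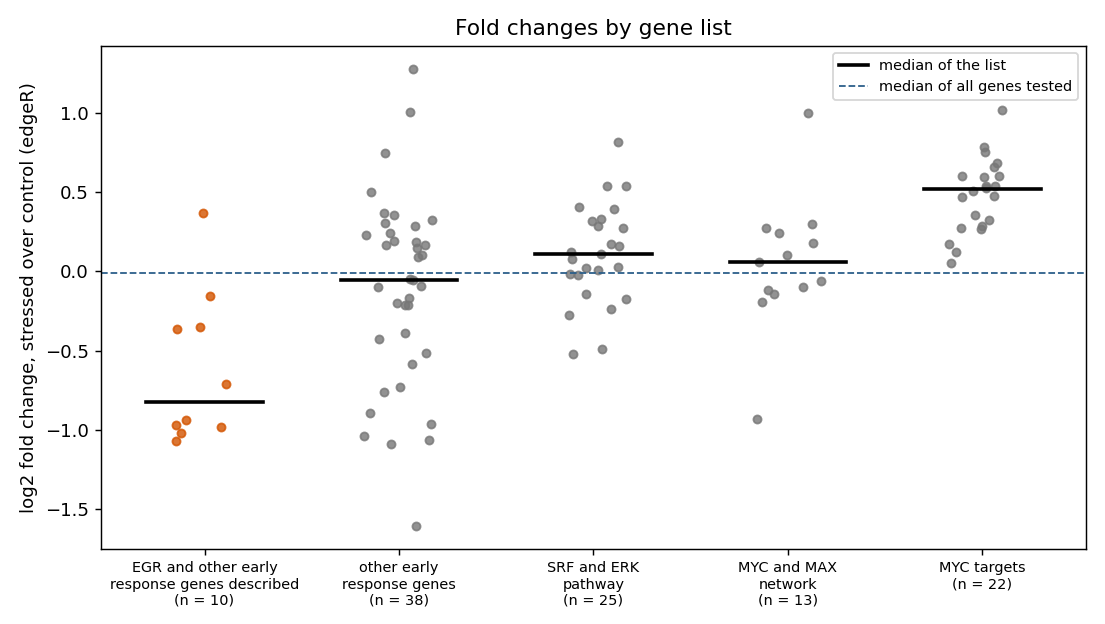
edgeR log2 fold change, stressed over control, of every tested gene in 5 lists (points, spread sideways only to separate them); black bars are list medians and the dashed line is the median of all 13348 genes tested. The 10 genes described have a median of -0.82, the other early response genes -0.052, the SRF and ERK pathway 0.11, the MYC and MAX network 0.059 and the MYC targets 0.52.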

How the data were processed

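RNA was isolated with the RNeasy micro kit and libraries were made with Smart-Seq V4, per the labels' protocols. The authors deposited raw counts, with featureCounts 1.6.1 named in the headers as the counter: exons were summed by gene name on mm10, minimum mapping quality 30, no strand, paired-end or multi-overlap option. Trim Galore 0.4.1, STAR 2.5.3 and DESeq2 1.22.2 are listed in the submitters' processing notes. The alignments counted for stressed replicates 1 and 2 are numbered 2 and 3 in the file headers. Exon lengths, in bases, were taken as deposited. The limit for an undetected gene, taken as 3 counts, is 0.253 to 0.323 CPM. The libraries of each group differed by more than sampling noise (chi-square per degree of freedom 19.0 in stressed and 57.6 in control).

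Counts were analysed in R 4.3.3: filterByExpr (minimum count 10), TMM scaling, edgeR 4.0.16 quasi-likelihood F-test, two-sided, Benjamini-Hochberg adjustment, threshold 0.05, SE as the log2 fold change over the square root of F. Alternatives were DESeq2 1.42.0, limma-voom 3.58.1, other scalings and filters, the replicate number as a block, and each library left out. The scripts were tested on simulated data. The 10 genes and the lists were chosen with earlier results of these data known. Named genes are the 10, and from each list up to 4 called genes with the largest fold changes. Where none was called, the gene with the highest CPM was named. Motifs were searched on both strands of the 250 bases before RefSeq start sites. A further Schwann cell marker is not reported here.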

Additional observations from a re-analysis of the deposited data

How the results depend on the processing

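With 2 libraries a group, the number of calls depended on the test and the filter. edgeR called 0 genes in all and 0 of the 10 with the reported settings, and its unadjusted p was below 0.05 for 1705 genes; the adjusted calls were also 0 with DESeq2 size factors, upper-quartile scaling, a minimum of 5 CPM in 2 libraries and limma-voom. With no low-count filter edgeR called 760 genes, 5 of them among the 10, and DESeq2 called 589 genes, again with 5 of the 10. With 1 library left out, edgeR called between 0 and 739 genes and between 0 and 3 of the 10: Egr1, Ier2 and Zfp36 without control replicate 1, Egr2 and Ier2 without control replicate 2, and none without either stressed library. DESeq2 called between 47 and 800 genes and between 0 and 4 of the 10, with 144 genes and 4 of the 10 without stressed replicate 1, 47 and 0 without stressed replicate 2, 477 and 3 without control replicate 1, and 800 and 4 without control replicate 2. The lone library of a group was then assumed to vary like the other group. The cause of these differences was not tested. The median log2 fold change of the 10 stayed between -0.93 and -0.66 with 1 library left out, and the number of genes with separate groups was 8 under all 4 scalings. Of 150 values of single genes under alternatives, 2 turned sign, both of Nab2 without control replicate 2, at 0.15 with edgeR and 0.15 with DESeq2. Nab2 with 1 library left out ranged between -0.39 and 0.15. As alternatives added after seeing the data, list medians were recomputed with 1 library left out: that of the other early response genes ranged between -0.32 and 0.18, and turned above 0 without stressed replicate 2, at 0.18, and without control replicate 2, at 0.15.

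With the replicate block, edgeR called 0 genes, 0 of the 10, with a median of -0.81. The labels do not say that the numbers pair libraries; deviations of same-numbered libraries correlated at 0.17 across 13348 genes, which are not independent. Egr3 had the fewest reads of the 10, between 45 and 78 a library; what limits its test was not tested.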

Other observations

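Partners through which BTG2 and ZFP36 are known to act gave no call, where edgeR called 0% and DESeq2 4.5% of all genes. For lists this small, no call is near those shares. Of 10 tested subunits of the CCR4-NOT deadenylase, log2 fold changes lay between -0.15 and 0.18 and none was called by edgeR or DESeq2. Cnot1, the scaffold subunit and the subunit with the highest CPM, had 163 and 165 CPM in the stressed and 134 and 169.8 CPM in the control libraries. Of 7 tested ZFP36 relatives and other proteins that bind AU-rich elements, 4 had values below 0 and 3 above, and none was called by either test. Elavl1, which encodes the mRNA-stabilising protein HuR, had 209.6 and 228 CPM in the stressed and 187 and 179 CPM in the control libraries. Of 13 listed mRNAs known to carry AU-rich elements bound by ZFP36, most of them cytokines, 7 passed the low-count filter, with 3 values below 0 and 4 above and no call by either test. Vegfa, with the highest CPM of them, had 48.3 and 52.7 CPM in the stressed and 28.7 and 48.7 CPM in the control libraries. Others had few reads, such as Il6 with between 4 and 31 reads a library. Btg1, a close relative of Btg2, had 383 and 279 CPM in the stressed and 308 and 310.0 CPM in the control libraries, with overlapping groups. It was 1 of 5 tested IER, BTG and TOB relatives, of which 4 had values below 0 and none was called by edgeR or DESeq2.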
